A study of Mus musculus with 9 samples.

Results

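The genes described here are the autophagy machinery and its receptors in midbrain dopaminergic neurons of the mouse, set against whole midbrain. The 41 genes were taken by symbol from the 24487 rows of the deposited expression table, and each of the 41 symbols was found. The list was drawn up with earlier results of these data known. They cover 5 genes of the initiation complex, 6 of the lipid kinase complex, 5 that supply membrane, 10 of the conjugation machinery, the 5 Atg8 genes, 5 cargo receptors with 1 kinase that acts on them, 3 mitophagy receptors and 1 fusion tether.

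RNA sequencing was done on 4 libraries of midbrain dopaminergic neurons and 5 libraries of whole midbrain, all from mice on a C57BL/6 background and, per the labels, with no treatment or genotype that differs between the groups. Age, sex, any transgene and the way the dopaminergic RNA was isolated are not stated in the labels used here. Nothing in them says that each library is a separate animal, and p-values therefore measure the spread between these libraries, which may be technical. The expression table is titled with the word bacTRAP, a method in which tagged ribosomes are pulled from 1 cell type with the RNA they carry, and in that method a transgene's promoter decides which cells are read. Whole midbrain holds every cell type of the tissue, so each comparison sets an enriched cell type against a mixture. In such bulk samples, fewer cells of a type and less RNA per cell cannot be told apart. If only the dopaminergic RNA was obtained with tagged ribosomes, each comparison also sets ribosome-bound RNA against all RNA of the tissue. Cell type, ribosome binding and the pull-down step would then change together between the groups, and these libraries cannot separate them. Their parts were not tested. Below, higher or lower in dopaminergic neurons refers to the RNA of those libraries.

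Autophagy wraps a part of the cytoplasm in a double membrane, the autophagosome, and delivers it to the lysosome. The Ulk1 kinase complex starts the process, a class III phosphatidylinositol 3-kinase marks the site, Wipi, Atg2 and Atg9 proteins bring lipid, and a chain of ubiquitin-like conjugations attaches the small Atg8 proteins (the LC3 and GABARAP families) to the membrane. Receptors such as p62 bind a cargo and Atg8 at once, and mitophagy receptors do so for mitochondria. Dopaminergic neurons of the midbrain, the cells lost in Parkinson disease, carry very long branched axons, and loss of autophagy genes in neurons of mice leads to protein aggregates and degeneration.

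Values are FPKM, fragments per kilobase of transcript scaled to the mapped reads of the library. Differences between the groups still moved with exonic length (given below). The part of length where the level of 1 gene is set beside that of another was not tested. The deposited table gives no read counts, and depth estimated from single-exon genes was 47.6 to 63.0 megareads in the dopaminergic libraries and 16.4 to 33.7 megareads in the whole midbrain libraries. Each estimate rests on 6 to 15 genes whose shared value was taken as that of 1 read, so these depths are rough. Pearson's r of log2(FPKM + 1) across genes was 0.990 to 0.991 between dopaminergic libraries and 0.784 to 0.817 between groups. Whole midbrain library 2 stood apart from its group, with r of 0.903 to 0.906 to the other 4, which reached 0.947 to 0.962 among themselves. All 7 dopaminergic markers were higher in the dopaminergic libraries, where they summed to 3697 to 4118 FPKM, against 207 to 240 FPKM in whole midbrain. All 6 oligodendrocyte markers were lower, at a sum of 154 to 259 FPKM against 2723 to 3216 FPKM in whole midbrain. Markers of astrocytes, microglia, endothelial and mural cells and other neurons were lower as well, each list in full (6 of 6, 6 of 6, 6 of 6 and 7 of 7 genes). The deposited values also differ in form between the groups: 0 percent of dopaminergic values carried more than 6 significant digits, against 97.7 to 99.3 percent of whole midbrain values. This coincides with the groups, and any effect of it cannot be told apart from that of the cells.

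The groups were compared with limma on log2(FPKM + 1) across the 13106 genes that averaged at least 1 FPKM over the 9 libraries, with p-values adjusted by Benjamini and Hochberg over all of them. All 41 autophagy genes passed that filter. At an adjusted p under 0.05, 21 of the 41 (51.2 percent) were higher in dopaminergic neurons, where 38.3 percent of all genes tested were, and 11 (26.8 percent) were lower, where 36.0 percent of all genes were. The other 9 did not pass. The 11 lower include the row named Atg4a, whose position leaves its identity uncertain (given below). In 20 of the 41 every dopaminergic library lay above every whole midbrain library and in 11 every one lay below, against 32.6 and 31.8 percent of all genes. The median log2 difference of the 41 was 0.37, beside 0.04 over all genes. The difference between the cell fractions touched 74.2 percent of all genes, so a single autophagy gene that passes is not unusual here.

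**Figure D1:**
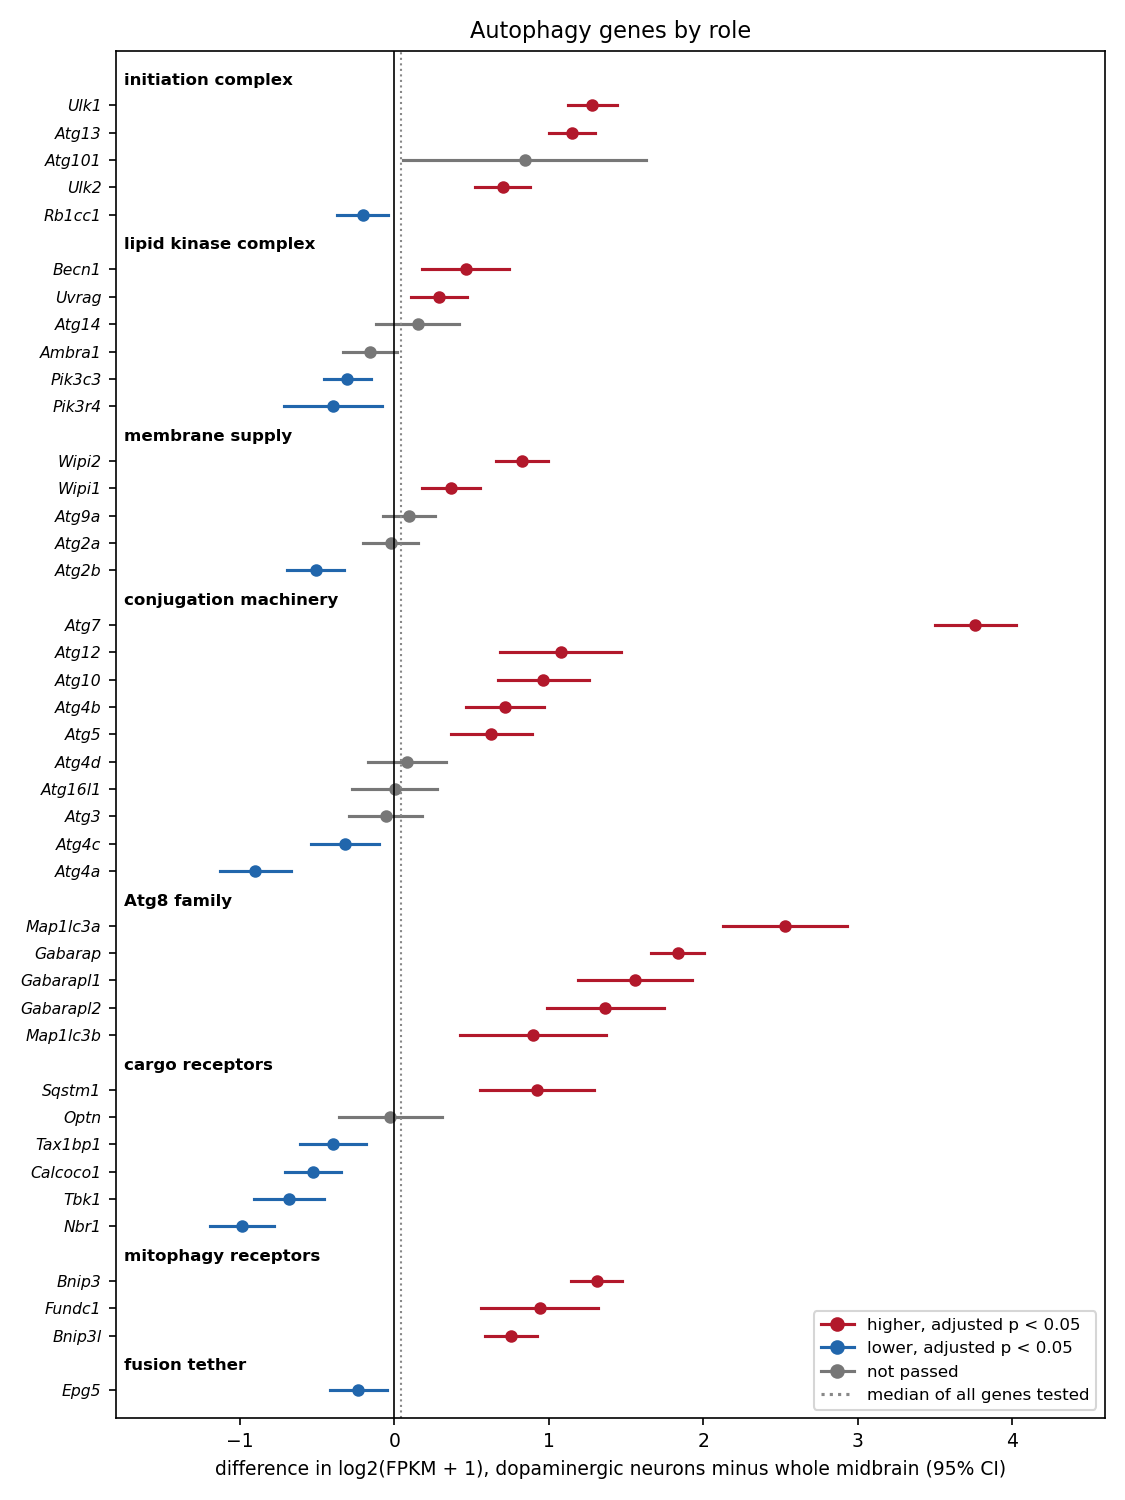
Difference in log2(FPKM + 1), dopaminergic neurons minus whole midbrain, for each of the 41 genes grouped by role, with 95 percent confidence intervals from limma (4 against 5 libraries); red points are higher, blue lower and grey not passed at an adjusted p of 0.05. Atg7 lies far to the right at 3.76, all 5 Atg8 genes lie right of 0, and 4 of the 6 genes in the cargo receptor group are blue (lower).

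Scaling moves these counts. The FPKM of all genes summed to 506466 to 521822 in the dopaminergic libraries and 309275 to 409130 in whole midbrain. When every library was rescaled to the same sum (the TPM scale), the median difference of all genes shifted by -0.59, and 11 autophagy genes were higher (17.2 percent of all genes) and 19 lower (56.4 percent of all genes). After a correction for exonic length, 25 of the 40 genes with a length were higher (41.2 percent of all genes) and 5 lower (32.5 percent of all genes). Quantile normalization gave 19 higher (38.1 percent of all genes) and 10 lower (31.3 percent of all genes). Without whole midbrain library 2 the counts were 22 higher and 11 lower, against 43.1 and 38.8 percent of all genes. Some genes kept their call and direction in each of the alternatives that gave them a value. Those that were higher were Ulk1, Atg13, Atg7, Atg12, Map1lc3a, Gabarap, Gabarapl2, Bnip3 and Fundc1. Those that were lower were Pik3c3, Nbr1, Calcoco1, Tbk1 and the row named Atg4a, whose identity is uncertain.

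In FPKM, the 41 genes summed to 2760 ± 40.5 in dopaminergic neurons and 1246 ± 113 in whole midbrain (SD, n = 4 and 5), a ratio of 2.21. As a share of each library's total FPKM, which was itself higher in dopaminergic neurons, they were 0.537 ± 0.0085 percent in dopaminergic neurons and 0.378 ± 0.0136 percent in whole midbrain, a ratio of 1.42. The Atg8 genes made up 64.5 ± 0.912 percent of the summed FPKM of the 41 in dopaminergic neurons and 48.6 ± 0.859 percent in whole midbrain. The order of the 41 levels was much alike in the groups, with a Spearman coefficient of 0.853 across genes, a description only. The gene that moved most in the order was Atg7, ranked 9 in dopaminergic neurons and 37 in whole midbrain. Gabarapl1 was the highest in both.

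**Figure D2:**
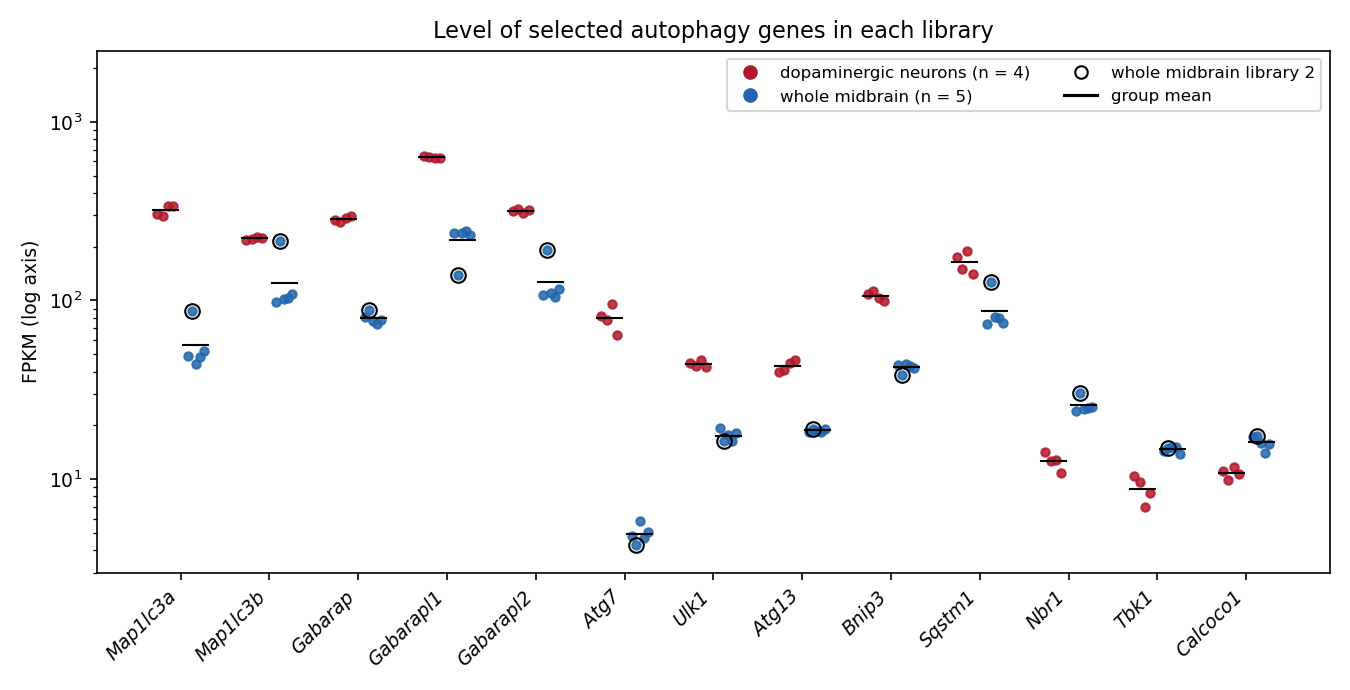
FPKM (log axis) of selected autophagy genes in each library, red for the 4 dopaminergic libraries and blue for the 5 of whole midbrain, with lines at the group means and whole midbrain library 2 circled. The red Atg7 points (63.9 to 96.2 FPKM) sit far above the blue ones (4.29 to 5.81 FPKM), and the whole midbrain library that leaves its group for several genes is library 2.

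The initiation complex joins the kinases Ulk1 or Ulk2 with Atg13, Atg101 and Rb1cc1 (FIP200). Ulk1, Ulk2 and Atg13 were higher in dopaminergic neurons, Rb1cc1 was lower, and Atg101 did not pass. The median difference of the 5 was 0.84 on the log2 scale. Ulk1 (chr5:110784489-110810081, mm10) had 44.4, 42.9, 46.2 and 42.7 FPKM in dopaminergic libraries 1 to 4, against 19.3, 16.3, 17.6, 16.5 and 18.1 FPKM in whole midbrain libraries 1 to 5. No library of one group came near the other. The log2 difference was 1.28 with a standard error of 0.07 (adjusted p = 1.1e-07, limma). Atg13 (chr2:91674612-91710592), the regulatory subunit that mTORC1 and Ulk1 phosphorylate, had 39.9, 40.96, 44.8 and 46.2 FPKM in dopaminergic neurons, against 18.3, 19.1, 18.7, 18.5 and 19.2 FPKM in whole midbrain. The groups did not overlap, the whole midbrain values lay within 1 FPKM of each other, and the difference was 1.15 ± 0.07 (log2, SE; adjusted p = 1.6e-07). Ulk2, the second kinase, averaged 22.1 ± 1.22 FPKM in dopaminergic neurons and 13.2 ± 1.22 FPKM in whole midbrain, 1.67-fold higher (adjusted p = 1.9e-05). Its call was lost on the TPM scale (adjusted p = 0.295). Rb1cc1, the scaffold, was at 17.8 to 21.4 FPKM in dopaminergic neurons and 22.2 to 24.6 FPKM in whole midbrain, a small fall of 1.16-fold (adjusted p = 0.0286) that turned to a rise of 0.31 (log2) after the length correction. The fall did not pass with median centring (adjusted p = 0.115) or without dopaminergic library 3 or 4 or whole midbrain library 1 (adjusted p = 0.0911, 0.0659 and 0.0556). Atg101, which stabilises Atg13, shows how whole midbrain library 2 bears on a result. It had 22.4, 17.6, 23.5 and 22.3 FPKM in dopaminergic neurons, against 9.13, 32.7, 8.86, 8.72 and 8.03 FPKM in whole midbrain. Only library 2 of whole midbrain lay above the dopaminergic range. The log2 difference was 0.84 (adjusted p = 0.0507) with it and 1.20 (adjusted p = 3.3e-07) without it. The per-library values of Atg101 were chosen for print after they were seen.

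The lipid kinase complex makes phosphatidylinositol 3-phosphate at the site of the new membrane. Its members went both ways, with 2 genes higher, 2 lower and 2 that did not pass, so the median of 0.00 describes none of those that passed. Becn1 (Beclin 1), the regulatory subunit, averaged 32.1 ± 2.18 FPKM in dopaminergic neurons and 23.3 ± 4.81 FPKM in whole midbrain, 1.38-fold higher (adjusted p = 0.0073), with library 2 of whole midbrain at 31.9 FPKM inside the dopaminergic range. Its exons overlap those of Cntd1 by 3104 bases on the opposite strand, and the libraries are not stated to keep strand. Uvrag, which takes Beclin 1 to endosomes and to late autophagosomes, was at 9.67 ± 0.902 FPKM in dopaminergic neurons and 7.71 ± 0.474 FPKM in whole midbrain (log2 difference 0.29, adjusted p = 0.0078). Both of these reversed on the TPM scale, to -0.16 for Becn1 and -0.31 for Uvrag. Neither passed with upper-quartile scaling (adjusted p = 0.073 and 0.446), nor did Becn1 with quantile normalization (0.230). The catalytic subunit Pik3c3 (Vps34) fell to 11.4 ± 0.277 FPKM in dopaminergic neurons, against 14.4 ± 0.949 FPKM in whole midbrain (log2 difference -0.31, adjusted p = 0.0022). Its membrane anchor Pik3r4 (Vps15, chr9:105642995-105687655) had 4.46, 4.64, 4.95 and 4.03 FPKM in dopaminergic neurons, against 6.06, 9.30, 5.15, 5.77 and 5.62 FPKM in whole midbrain. The dopaminergic values were all lower, by -0.40 ± 0.14 (log2, SE; adjusted p = 0.0281), but the lowest whole midbrain value stood just above the highest dopaminergic one. The call was lost after the length correction (adjusted p = 0.709), with quantile normalization (0.234) and without dopaminergic library 1, 2 or 4 (0.0585, 0.0507 and 0.0770). Atg14, the subunit that directs the kinase to autophagy (0.15, adjusted p = 0.278), and Ambra1, a Beclin 1 partner (-0.16, adjusted p = 0.0941), did not pass. Ambra1 passed as lower in 4 alternatives, among them the TPM scale (-0.78, adjusted p = 8.7e-05). Atg14 passed as higher with quantile normalization (0.45, adjusted p = 0.014).

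Of the genes that supply membrane, the Wipi proteins read phosphatidylinositol 3-phosphate, Atg2a and Atg2b transfer lipid and Atg9a is the scramblase of the seed vesicles. Wipi2, which recruits the conjugation machinery, averaged 19.4 ± 1.18 FPKM in dopaminergic neurons and 10.5 ± 0.796 FPKM in whole midbrain, 1.84-fold higher (adjusted p = 3.9e-06). Wipi1 was at 8.98 ± 0.784 FPKM in dopaminergic neurons and 6.74 ± 0.562 FPKM in whole midbrain (log2 difference 0.37, adjusted p = 0.0027). On the TPM scale Wipi2 no longer passed (adjusted p = 0.113) and Wipi1 reversed to -0.22. With upper-quartile scaling Wipi1 did not pass either (adjusted p = 0.170). Atg2b (chr12:105613540-105685241) had 6.48, 6.39, 5.80 and 5.35 FPKM in dopaminergic neurons, against 8.65, 10.3, 8.56, 8.63 and 8.72 FPKM in whole midbrain. All dopaminergic values lay below, and the difference was -0.51 ± 0.08 (log2, SE; adjusted p = 0.00027). After the length correction it was -0.03 (adjusted p = 0.776). Atg2a (-0.02, adjusted p = 0.804) and Atg9a (0.09, adjusted p = 0.281) did not pass. On the TPM scale both passed as lower (-0.62 and -0.53, adjusted p = 0.0011 and 0.0016). After the length correction both passed as higher (0.21 and 0.19, adjusted p = 0.0365 and 0.0334).

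In the conjugation machinery, Atg7 is the E1 enzyme that activates both Atg12 and the Atg8 proteins, Atg3 and Atg10 are the E2 enzymes, Atg12, Atg5 and Atg16l1 form the E3-like complex, and the 4 Atg4 proteases trim Atg8 proteins and release them from membrane. Atg7, Atg10, Atg5, Atg12 and Atg4b were higher, Atg4c and the row named Atg4a were lower, and Atg3, Atg16l1 and Atg4d did not pass. The median difference was 0.36. Atg7 had by far the largest difference of the 41 genes. It had 81.7, 77.8, 96.2 and 63.9 FPKM in dopaminergic libraries 1 to 4, against 4.79, 4.29, 5.81, 4.66 and 5.05 FPKM in whole midbrain libraries 1 to 5. The lowest dopaminergic value was many times the highest one of whole midbrain. The mean was 79.9 ± 13.3 FPKM in dopaminergic neurons and 4.92 ± 0.568 FPKM in whole midbrain, a ratio of 16.2, and the log2 difference was 3.76 ± 0.12 (SE; adjusted p = 3.6e-09). Over the alternatives it ran between 3.09 and 3.99. In the table Atg7 spans chr6:114643097-114860614. The neighbours on either side, Hrh1 at 0.24 FPKM in dopaminergic neurons and 1.99 FPKM in whole midbrain, and Vgll4 at 2.36 FPKM in dopaminergic neurons and 3.41 FPKM in whole midbrain, had no such level, and were named with their values in view.

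The partners of Atg7 did not share its scale. Its E2 enzyme for Atg8, Atg3, averaged 29.7 ± 2.58 FPKM in dopaminergic neurons and 31.0 ± 3.99 FPKM in whole midbrain (log2 difference -0.06, 95 percent interval -0.29 to 0.18, adjusted p = 0.651). Atg3 passed as lower on the TPM scale (-0.69, adjusted p = 0.0032) and with quantile normalization (-0.42, adjusted p = 0.0194). The E2 enzyme for Atg12, Atg10, averaged 11.4 ± 1.06 FPKM in dopaminergic neurons and 5.42 ± 1.08 FPKM in whole midbrain, 2.11-fold higher (adjusted p = 7.3e-05). On the TPM scale its log2 difference was 0.43 instead of 0.97 and did not pass (adjusted p = 0.0796). In whole midbrain Atg7 was thus below Atg3, and in dopaminergic neurons above it. Atg12 averaged 35.5 ± 0.873 FPKM in dopaminergic neurons and 16.9 ± 5.62 FPKM in whole midbrain (adjusted p = 0.00026), and its partner Atg5 averaged 10.7 ± 0.515 FPKM in dopaminergic neurons and 6.63 ± 1.25 FPKM in whole midbrain (adjusted p = 0.00069). On the TPM scale Atg5 did not pass (log2 difference 0.06, adjusted p = 0.632). Atg16l1, which places the complex on the membrane, was at 6.06 ± 0.450 FPKM in dopaminergic neurons and 6.12 ± 1.32 FPKM in whole midbrain (adjusted p = 0.985). On the TPM scale Atg16l1 passed as lower (log2 difference -0.60, adjusted p = 0.00022).

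The Atg4 proteases split. Atg4b, the most active of them, averaged 11.9 ± 0.683 FPKM in dopaminergic neurons and 6.93 ± 1.34 FPKM in whole midbrain, 1.72-fold higher (adjusted p = 0.00022), a call lost on the TPM scale (log2 difference 0.15, adjusted p = 0.156). Atg4c (chr4:99193934-99259787) had 12.8, 13.0, 12.8 and 14.5 FPKM in dopaminergic neurons, against 14.6, 20.5, 16.2, 15.6 and 17.5 FPKM in whole midbrain. The ranges nearly touched, and the difference was -0.32 ± 0.10 (log2, SE; adjusted p = 0.013). The row named Atg4a had 1.14, 1.56, 1.10 and 1.42 FPKM in dopaminergic neurons, against 3.48, 2.70, 3.21, 3.65 and 3.42 FPKM in whole midbrain. All dopaminergic values were lower, by -0.90 ± 0.10 (log2, SE; adjusted p = 2.1e-05). The position of this row leaves its identity uncertain. The table places it at chr3:103643953-103646068, where GENCODE annotates Atg4a-ps, tagged as a retrogene, whose exons overlap those of Syt6 on the other strand by 505 bases, while Atg4a itself is annotated on the X chromosome (140956907 to 141164270). Atg4d was low in both groups, at 2.18 ± 0.437 FPKM in dopaminergic neurons and 1.99 ± 0.226 FPKM in whole midbrain (adjusted p = 0.516). It passed as higher with quantile normalization (log2 difference 0.58, adjusted p = 0.0010) and as lower on the TPM scale (-0.43, adjusted p = 0.0141). The exons of Atg4d overlap those of Kri1 on the opposite strand by 1405 bases.

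Promoters are shown for 3 genes because the hexamer CACGTG, an E-box, is the core of the site that TFEB and its relatives bind in autophagy and lysosome genes. Atg7 and Bnip3 have the largest differences of the 3 genes that were higher and carry it, and Atg3 is the partner of Atg7 that did not pass. The windows run from 250 bases before to 50 bases after the RefSeq start site (GRCm38.p6, the assembly of mm10), 5′ to 3′ on the gene's strand, with each CACGTG in capitals. They are chr6:114670846-114671145 (plus strand) for Atg7, chr7:138909457-138909756 (minus strand) for Bnip3 and chr16:45158579-45158878 (plus strand) for Atg3.
Atg7: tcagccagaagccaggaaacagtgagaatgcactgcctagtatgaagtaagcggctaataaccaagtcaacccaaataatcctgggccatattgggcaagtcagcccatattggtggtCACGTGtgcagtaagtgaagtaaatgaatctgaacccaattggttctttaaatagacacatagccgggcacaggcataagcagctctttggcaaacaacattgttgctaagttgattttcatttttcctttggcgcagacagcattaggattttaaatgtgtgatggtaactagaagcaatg
Bnip3: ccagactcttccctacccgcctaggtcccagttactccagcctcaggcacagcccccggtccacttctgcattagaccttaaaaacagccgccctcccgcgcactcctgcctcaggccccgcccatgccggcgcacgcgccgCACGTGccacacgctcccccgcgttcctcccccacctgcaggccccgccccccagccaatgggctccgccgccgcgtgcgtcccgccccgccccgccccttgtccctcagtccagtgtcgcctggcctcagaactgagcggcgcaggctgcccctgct
Atg3: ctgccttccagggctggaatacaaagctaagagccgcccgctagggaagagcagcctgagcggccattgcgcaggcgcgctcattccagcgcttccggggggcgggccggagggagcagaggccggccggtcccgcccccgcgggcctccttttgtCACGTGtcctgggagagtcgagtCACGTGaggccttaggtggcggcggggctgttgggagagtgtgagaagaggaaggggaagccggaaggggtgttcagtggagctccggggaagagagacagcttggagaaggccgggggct
The hexamer starts 132 bases before the start site in Atg7, 108 before it in Bnip3, and 94 and 71 before it in Atg3. For Atg7 the RefSeq start lies 27999 bases downstream of the gene's start in the expression table. The sequence around the start in the expression table was not searched. Of the 41 genes, 33 had a RefSeq window, and 6 of these (18.2 percent) held CACGTG: Atg5, Atg7 and Bnip3 among 17 that were higher, Tbk1 among 8 that were lower, and Atg14 and Atg3 among 8 that did not pass. Of 9699 tested genes with a window, 1146 (11.8 percent) held it. The 8 lower genes with a window include Atg4a, whose windows lie on the X chromosome, while its call is that of the chromosome 3 row. The longer forms TCACGTGA and GTCACGTGAC, which contain the hexamer and, like it, read the same on both strands, were in 1 (Atg3) and 0 of the 33, against 2.23 and 0.794 percent of tested genes. A match describes letters in a window and does not show a bound site.

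The 5 Atg8 genes were all higher in dopaminergic neurons, where 38.3 percent of all genes were. Their median log2 difference was 1.56, and 4 of them at least doubled. With quantile normalization or on the TPM scale 2 at least doubled, Map1lc3a (1.79 and 1.90) and Gabarap (1.06 and 1.20), while Gabarapl1 was at 0.46 and 0.92 and Gabarapl2 at 0.50 and 0.73. Their log2 differences stayed above 0 in all alternatives, although with quantile normalization Map1lc3b and Gabarapl1 (adjusted p = 0.651 and 0.145) and on the TPM scale Map1lc3b (0.122) no longer passed. Map1lc3a (chr2:155276364-155278073) had 305, 297, 339 and 338 FPKM in dopaminergic libraries 1 to 4, against 48.8, 87.7, 44.2, 48.2 and 52.1 FPKM in whole midbrain libraries 1 to 5. Every dopaminergic value was over 3 times the highest of whole midbrain, and the difference was 2.53 ± 0.18 (log2, SE; adjusted p = 6.2e-07). Gabarap (chr11:69991370-69994949) had 283, 276, 290 and 296 FPKM in dopaminergic neurons, against 81.0, 88.6, 76.9, 73.7 and 78.1 FPKM in whole midbrain. Both groups were tight and far apart, with a difference of 1.83 ± 0.08 (adjusted p = 2.2e-08). Gabarapl1 (chr6:129533192-129542331), the most abundant of the family, had 644, 634, 629 and 626 FPKM in dopaminergic neurons, against 238, 139, 240, 246 and 232 FPKM in whole midbrain. Library 2 of whole midbrain was the low one here, and the difference was 1.56 ± 0.17 (adjusted p = 1.2e-05). Its exons overlap those of 1700101I11Rik on the opposite strand by 570 bases. Gabarapl2 (chr8:111940703-111952915) had 317, 324, 308 and 322 FPKM in dopaminergic neurons, against 107, 193, 110, 104 and 116 FPKM in whole midbrain. Map1lc3b (chr8:121590468-121598047) had 217, 222, 228 and 224 FPKM in dopaminergic neurons, against 97.7, 215, 102, 104 and 108 FPKM in whole midbrain. In both of these genes library 2 of whole midbrain was the high one, and for Map1lc3b it stood just below the dopaminergic range. The differences were 1.37 ± 0.17 for Gabarapl2 (adjusted p = 3.8e-05) and 0.90 ± 0.21 for Map1lc3b (adjusted p = 0.0031).

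The family as a whole summed to 1766, 1752, 1794 and 1804 FPKM in dopaminergic neurons, against 573, 723, 573, 575 and 587 FPKM in whole midbrain, 2.93 times as much in the means. As a share of each library's total FPKM it was 0.346 ± 0.00166 percent in dopaminergic neurons and 0.184 ± 0.00461 percent in whole midbrain, a ratio of 1.89. Its make-up differed as well. Map1lc3a took 17.9 ± 0.985 percent of the sum in dopaminergic neurons and 9.12 ± 1.73 percent in whole midbrain, and Map1lc3b took 12.5 ± 0.205 percent in dopaminergic neurons and 20.2 ± 5.32 percent in whole midbrain. Within whole midbrain, Map1lc3b took 29.7 percent in library 2 and 17.1 to 18.4 percent in libraries 1, 3, 4 and 5. Map1lc3a was thus above Map1lc3b in every dopaminergic library and below it in every whole midbrain library. Gabarapl1 held 34.7 to 36.5 percent in dopaminergic neurons, against 39.5 to 42.7 percent in whole midbrain libraries 1, 3, 4 and 5 and 19.3 percent in library 2.

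**Figure D3:**
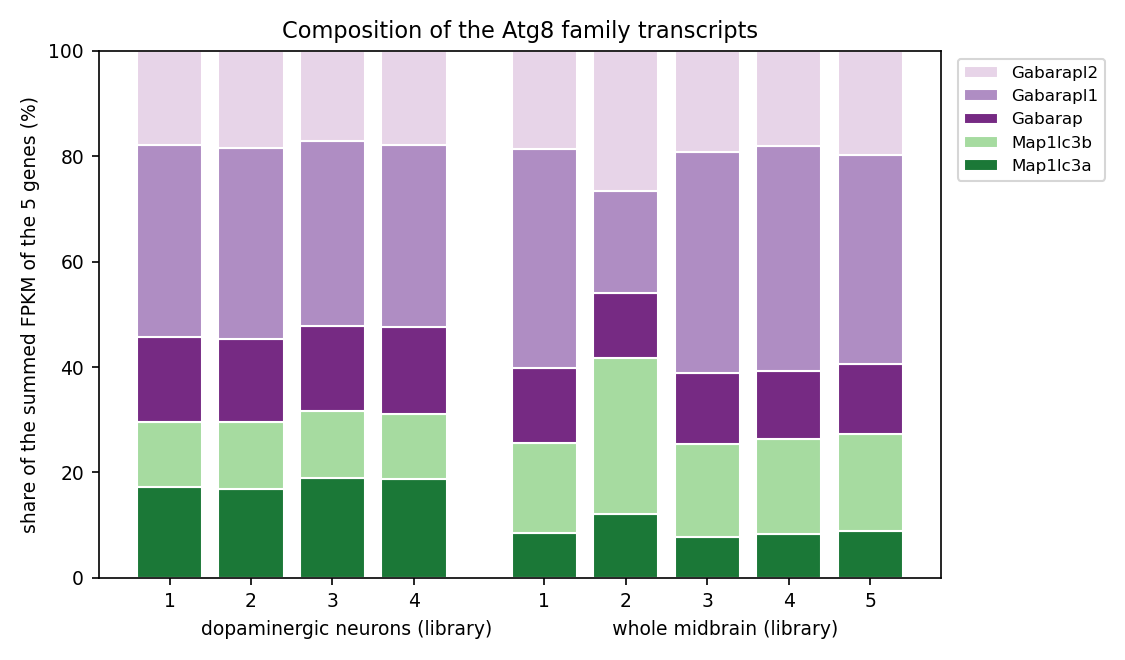
Share of each Atg8 gene in the summed FPKM of the 5 (percent), in each dopaminergic library and each whole midbrain library, stacked to 100. Map1lc3a takes a larger share in the dopaminergic libraries (16.9 to 18.9 percent) than in whole midbrain (7.72 to 12.1 percent), and whole midbrain library 2 differs from the other 4 in its Gabarapl1 and Map1lc3b shares.

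Cargo receptors bind ubiquitin or other marks on a cargo and an Atg8 protein. Here 1 of the 6 genes of this group was higher (38.3 percent of all genes), 4 were lower (36.0 percent of all genes) and 1 did not pass. The median log2 difference was -0.46, beside 0.04 over all genes. The one that was higher was Sqstm1 (p62), the receptor of ubiquitinated protein aggregates, at 175, 150, 189 and 141 FPKM in dopaminergic neurons, against 74.1, 126, 81.2, 79.3 and 74.9 FPKM in whole midbrain. The groups did not overlap, but libraries 1 and 3 of the dopaminergic neurons stood above libraries 2 and 4, and library 2 of whole midbrain above its group. The log2 difference was 0.92 ± 0.16 (SE; adjusted p = 0.00049), and with quantile normalization it was 0.21 (adjusted p = 0.126). Atg7 too was higher in dopaminergic libraries 1 and 3, while the summed oligodendrocyte markers were lower in them (154 and 172 FPKM) than in libraries 2 and 4 (221 and 259 FPKM); the part of these markers in the results was not tested. These per-library values of Sqstm1 were chosen for print after they were seen.

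Nbr1, a receptor that works together with p62, moved the other way. Nbr1 (chr11:101552107-101581951) had 14.1, 12.6, 12.8 and 10.9 FPKM in dopaminergic neurons, against 24.1, 30.2, 24.8, 25.1 and 25.3 FPKM in whole midbrain. No library overlapped, and the means were 2.06-fold lower in dopaminergic neurons (log2 difference -0.99 ± 0.09, SE; adjusted p = 4.9e-06). Tbk1 (chr10:121546456-121586794), the kinase that phosphorylates p62 and optineurin, had 10.4, 9.59, 7.01 and 8.37 FPKM in dopaminergic neurons, against 14.4, 14.9, 15.1, 15.2 and 13.8 FPKM in whole midbrain. It was lower in every dopaminergic library, by -0.68 ± 0.10 (adjusted p = 0.00015). Calcoco1 (chr15:102706777-102722178), known in human cells as a receptor for endoplasmic reticulum and Golgi, had 11.1, 9.91, 11.7 and 10.7 FPKM in dopaminergic neurons, against 17.1, 17.5, 15.97, 14.1 and 15.7 FPKM in whole midbrain. Again all dopaminergic values were lower, by -0.52 ± 0.08 (adjusted p = 0.00019). Tax1bp1 (chr6:52713729-52766779), a ubiquitin-binding receptor, had 47.3, 47.0, 45.7 and 44.3 FPKM in dopaminergic neurons, against 64.4, 48.9, 63.1, 64.4 and 65.4 FPKM in whole midbrain. Library 2 of whole midbrain came close to the dopaminergic range, the difference was -0.40 ± 0.09 (adjusted p = 0.0033), and after the length correction it was -0.05 (adjusted p = 0.540). Optn (optineurin), the receptor that with Tbk1 serves Parkin-dependent mitophagy, was at 9.51 ± 0.945 FPKM in dopaminergic neurons and 9.87 ± 2.61 FPKM in whole midbrain (log2 difference -0.02, 95 percent interval -0.36 to 0.31, adjusted p = 0.890). On the TPM scale Optn passed as lower (-0.64, adjusted p = 0.00033). Within the sum of the 5 receptors without Tbk1, Sqstm1 took 67.3 ± 2.27 percent in dopaminergic neurons and 43.0 ± 5.81 percent in whole midbrain, and Nbr1 took 5.19 ± 0.390 percent in dopaminergic neurons and 12.9 ± 0.274 percent in whole midbrain.

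All 3 mitophagy receptors, which sit in the outer mitochondrial membrane and bind Atg8 proteins without ubiquitin, were higher in dopaminergic neurons. Of all genes tested, 38.3 percent were higher. Bnip3 (2265 bases) and Fundc1 (2353 bases) fall in the shortest of 4 length classes, where 52.2 percent of all genes were higher. Bnip3l (3859 bases) falls in the second, where 43.1 percent were. Bnip3 (chr7:138890836-138909506), known as a target of hypoxia signalling, had 109, 113, 104 and 99.2 FPKM in dopaminergic neurons, against 43.5, 38.4, 44.4, 42.8 and 42.1 FPKM in whole midbrain. The groups were well apart, with a difference of 1.31 ± 0.07 (log2, SE; adjusted p = 1.2e-07). Its exons overlap those of Gm45507 on the opposite strand by 504 bases. Bnip3l (Nix), which clears mitochondria from maturing red blood cells, averaged 84.9 ± 2.20 FPKM in dopaminergic neurons and 49.96 ± 3.73 FPKM in whole midbrain, 1.70-fold higher (adjusted p = 7.4e-06). Fundc1, a receptor in hypoxia, averaged 53.5 ± 2.86 FPKM in dopaminergic neurons and 28.2 ± 8.78 FPKM in whole midbrain, 1.90-fold higher (adjusted p = 0.00056). All 3 differences stayed above 0 in every alternative, and Bnip3l no longer passed with quantile normalization (adjusted p = 0.243) or on the TPM scale (0.435). Epg5, which tethers autophagosomes to lysosomes, was slightly lower, at 4.48 ± 0.370 FPKM in dopaminergic neurons and 5.44 ± 0.453 FPKM in whole midbrain (log2 difference -0.23, adjusted p = 0.026), did not pass with quantile normalization or median centring (0.927 and 0.123), and reversed to 0.11 after the length correction. It did not pass without any one of dopaminergic libraries 2, 3 and 4 and whole midbrain libraries 1 and 3 (adjusted p of 0.0562 to 0.0733).

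Ratios of related genes within a library do not depend on the library's scale. The 2 genes of a pair can still differ in exonic length, as Map1lc3a (1181 bases) and Map1lc3b (7517 bases) do. The ratios were not computed with the length correction, and the part of length in them was not tested. In 9 of 12 pairs of partners or paralogs the ratios of the 2 groups did not overlap and their mean log2 ratio differed by an exact permutation test (two-sided p = 0.0159, the smallest that 4 against 5 libraries allow, and 0.0212 adjusted over the 12 pairs). Groups that do not overlap always get this smallest p, so the 2 statements are 1 result. Among single genes, 74.2 percent passed, and the dopaminergic libraries all lay above in 32.6 percent and all below in 31.8 percent. No such share was computed for other pairs, so the count only describes these 12. The pairs were listed with earlier results of these data known. The ratio of Map1lc3a to Map1lc3b had a median of 1.45 in dopaminergic neurons and 0.465 in whole midbrain. The ratio of Sqstm1 to Nbr1 had a median of 12.7 in dopaminergic neurons and 3.16 in whole midbrain. Ulk1 over Ulk2 stood at 1.98 in dopaminergic neurons and 1.38 in whole midbrain, and Bnip3 over Bnip3l at 1.25 in dopaminergic neurons and 0.840 in whole midbrain. Within the lipid kinase, Becn1 over Pik3c3 was 2.86 in dopaminergic neurons and 1.47 in whole midbrain. Ratios that were lower in dopaminergic neurons were Wipi1 over Wipi2 (0.459, against 0.653 in whole midbrain), Atg4c over Atg4d (6.18, against 8.62 in whole midbrain) and the uncertain Atg4a row over Atg4b (0.111, against 0.516 in whole midbrain). Atg2a over Atg2b was 0.773 in dopaminergic neurons and 0.521 in whole midbrain. Gabarapl1 over Gabarapl2, Gabarapl1 over Gabarap and Atg14 over Uvrag did not pass (exact permutation p = 0.937, 0.286 and 0.540). Without library 2 of whole midbrain, Gabarapl1 over Gabarap passed at a log2 difference of -0.48 (adjusted p = 0.0343, exact permutation).

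**Figure D4:**
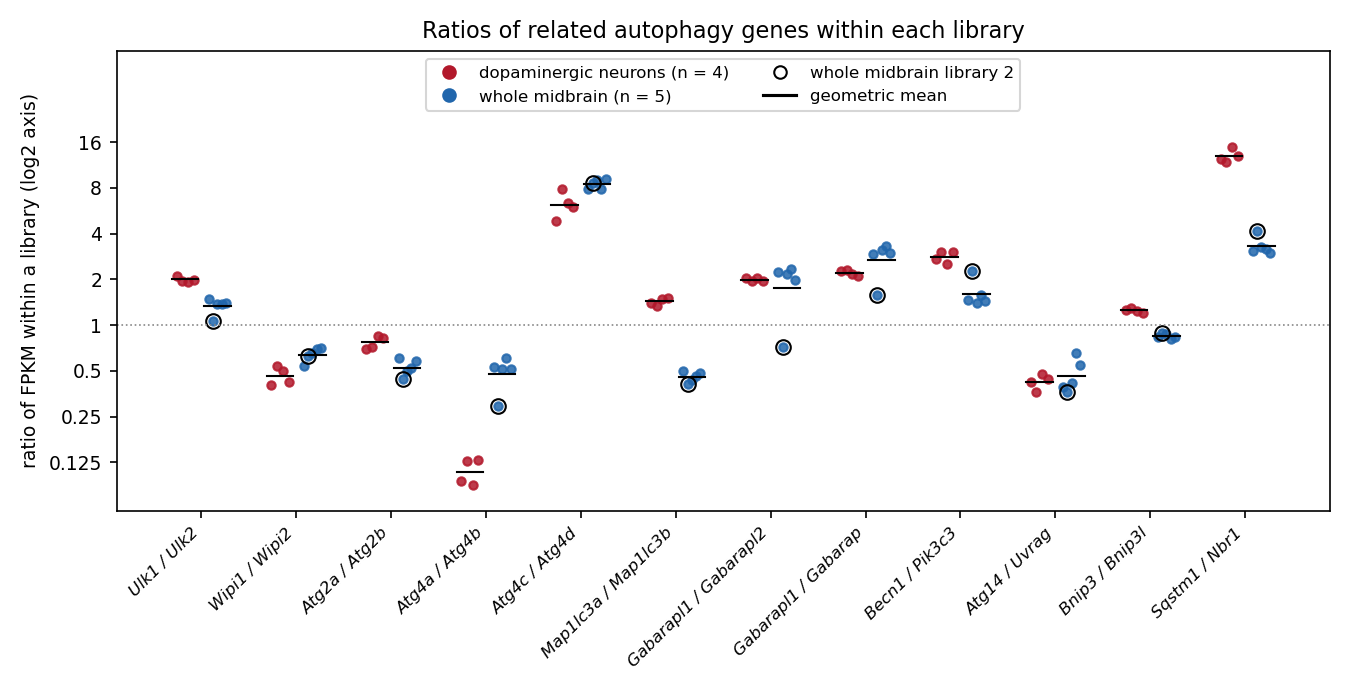
Ratio of the FPKM of 2 related genes in each library (log axis), for 12 pairs, with the 4 dopaminergic libraries left of the 5 whole midbrain libraries in each pair, lines at the geometric means and whole midbrain library 2 circled. The ratio of Map1lc3a to Map1lc3b lies above 1 in all dopaminergic libraries and below 1 in all whole midbrain libraries.

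Exonic length moved with the difference between the groups, in all genes and among the autophagy genes. Over the 12417 tested genes with a length in the GENCODE annotation, the median log2 difference was 0.47 in the shortest class (up to 2782 bases), 0.18 in the second (up to 4480), 0.00 in the third (up to 6990) and -0.32 in the longest, and 52.2, 43.1, 35.2 and 22.8 percent of genes were higher. Lower genes made up 24.5 percent of the shortest class and 52.8 percent of the longest. Of the 9 autophagy genes in the shortest class, which hold 4 of the 5 Atg8 genes, 8 were higher and 0 lower. Of the 14 in the longest class, 6 were higher and 5 (35.7 percent) lower. The Spearman coefficient of length with the difference was -0.461 over 40 autophagy genes and -0.253 over all genes, both as descriptions across genes. Atg7, at 6968 bases, had a difference of 3.76 where its class had a median of 0.00. The part of length in the results of single genes was not tested beyond the corrected values given here.

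**Figure D5:**
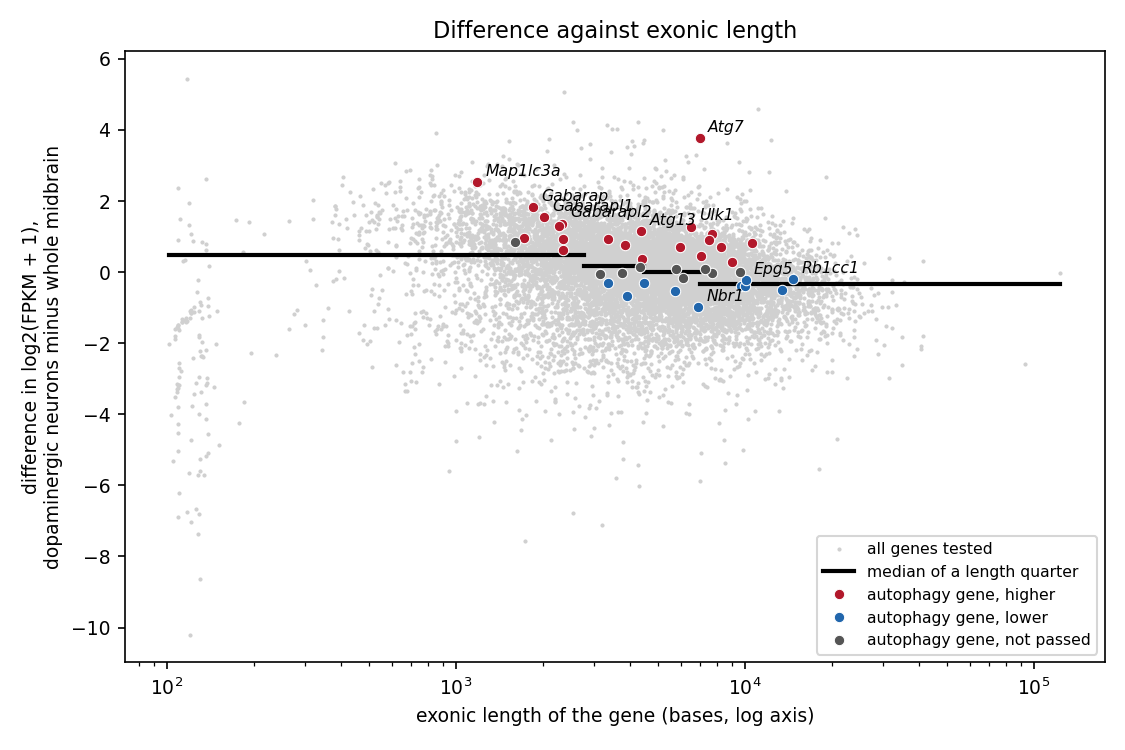
Difference in log2(FPKM + 1), dopaminergic neurons minus whole midbrain, against exonic length (bases, log axis), for all genes tested (light grey) and the autophagy genes (red higher, blue lower, dark grey not passed); black lines are the medians of 4 length classes. The lines step down with length, the short Atg8 genes lie above the line of their class, and Atg7 lies far above its own.

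Most levels varied little within a group. The coefficient of variation over the 4 dopaminergic libraries had a median of 7.01 percent over the 41 genes, with Gabarapl1 lowest (1.28 percent) and Atg4d highest (20.02 percent). Over the 5 whole midbrain libraries the median was 11.4 percent, with Atg101 highest (79.6 percent), and without library 2 it was 5.40 percent. Atg7, at 16.6 percent, was among the more variable genes in dopaminergic neurons.

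The rest of the pathway was read from 4 further lists, against the same 38.3 percent higher and 36.0 percent lower over all genes. Of 17 other core genes, 7 were higher and 8 lower. Nrbf2, a subunit of the Atg14-containing lipid kinase, averaged 13.6 ± 0.899 FPKM in dopaminergic neurons and 6.11 ± 0.894 FPKM in whole midbrain (log2 difference 1.04, adjusted p = 4.9e-06). Bcl2l1 (Bcl-xL), which binds Beclin 1, differed by 0.97 (adjusted p = 0.00020), and Wdr45b, a Wipi relative, by 0.68 (adjusted p = 0.0271). The call of Wdr45b was lost in 7 of the 9 fits without a single library (adjusted p of 0.0558 to 0.0644 in them), with upper-quartile scaling (0.0811) and on the TPM scale (0.665). Vmp1 and Tmem41b, scramblases of the endoplasmic reticulum, fell by 0.88 (adjusted p = 0.0037) and 0.75 (adjusted p = 1.2e-05), and Ulk3 fell by 0.55 (adjusted p = 0.0053), a call lost with quantile normalization (-0.29, adjusted p = 0.0918). Of 14 genes for fusion with lysosomes, 6 were higher and 2 lower. Rab7, the GTPase of late endosomes, averaged 1200 ± 41.7 FPKM in dopaminergic neurons and 390 ± 98.4 FPKM in whole midbrain (log2 difference 1.67, adjusted p = 4.2e-05; 0.54, adjusted p = 0.152, with quantile normalization). The SNARE Ykt6 (0.93, adjusted p = 7.6e-07) and the adaptor Plekhm1 (0.79, adjusted p = 5.3e-05) were also higher, and Plekhm1 did not pass on the TPM scale (0.22, adjusted p = 0.274). The SNARE Vamp8 averaged 1.89 ± 0.991 FPKM in dopaminergic neurons and 16.5 ± 7.86 FPKM in whole midbrain (-2.57, adjusted p = 2.1e-05), and Vps16, a core subunit of the tethering complexes, fell by 0.59 (adjusted p = 0.00011).

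Of 24 genes for upstream control, 9 were higher and 6 lower. Akt1s1 (PRAS40), an inhibitor of mTORC1, and Rheb, its activator, both differed by 1.38 (adjusted p = 2.7e-06 and 7.4e-07), and Foxo3, a forkhead factor that drives autophagy genes, by 1.35 (adjusted p = 4.1e-05). Its relative Foxo1 averaged 1.35 ± 0.255 FPKM in dopaminergic neurons and 5.39 ± 0.467 FPKM in whole midbrain (-1.44, adjusted p = 5.3e-07). The kinase Mtor fell by 0.74 (adjusted p = 3.5e-05), and Zkscan3, a repressor of autophagy genes, fell by 0.66 (adjusted p = 4.2e-05). The factors that read the E-box shown above also split (they were picked with their values in view). Tfe3 averaged 13.7 ± 1.25 FPKM in dopaminergic neurons and 7.07 ± 0.969 FPKM in whole midbrain (adjusted p = 2.8e-05), whereas Tfeb averaged 1.57 ± 0.402 FPKM in dopaminergic neurons and 2.84 ± 0.658 FPKM in whole midbrain (adjusted p = 0.0054) and Mitf averaged 1.07 ± 0.265 FPKM in dopaminergic neurons and 2.07 ± 0.433 FPKM in whole midbrain (adjusted p = 0.0039). Tfe3 did not pass on the TPM scale (adjusted p = 0.0789), and with quantile normalization Tfeb did not pass (0.558) and Mitf turned to 0.01. Of 19 other selective receptors in the table, 18 passed the filter on low values and 9 of these were higher and 4 lower, and Calcoco2 was below the filter. Stbd1, the glycogen receptor (1.88, adjusted p = 2.3e-07), Fkbp8, a mitochondrial receptor (1.46, adjusted p = 1.8e-07), and Nipsnap1, a mitochondrial tag for mitophagy (1.36, adjusted p = 2.6e-06), had the largest rises. Fyco1, which links Rab7 and Atg8 to kinesin (-1.61, adjusted p = 3.7e-08), and the endoplasmic reticulum receptors Ccpg1 (-1.11, adjusted p = 1.6e-06) and Sec62 (-0.58, adjusted p = 0.00015) had the largest falls.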

How the data were processed

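Gene expression was measured by RNA sequencing (100-base single-end reads, cDNA amplified from 2.5 ng of RNA, per the labels' protocols). The values are FPKM as the authors deposited them. Per the submitters' processing notes TopHat2 2.0.8, Cufflinks 2.1.1 and mm10 were used. For the annotation, program options and strand handling, nothing is given in the sources used here. FPKM are scaled to each library's mapped reads, so a few abundant genes can shift all others. The table gives no counts, so no counting intervals are printed. Depth was estimated from the FPKM of 1 read in single-exon genes of at least 800 bases, with 200-base fragments assumed and a tolerance of 1 percent.

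Groups follow the sample titles. Genes averaging at least 1 FPKM were compared with limma 3.58.1 (R 4.3.3; trended empirical Bayes) on log2(FPKM + 1), and a fold on that scale understates the change of low genes. Folds of means are ratios of mean FPKM. Pair ratios were compared by exact permutation over libraries with SciPy 1.17.1. The code was tested on simulated data. Exonic lengths and overlaps came from GENCODE M21 (GRCm38, the assembly of mm10), matched by symbol for 22540 rows, and 260 symbols naming 750 rows were kept as separate rows. Overlaps not given above, on the opposite strand, were Uvrag with Gm45187 (1589 bases) and Rb1cc1 with 4732440D04Rik (558). Those of Atg2b, Atg14, Tax1bp1 and Optn were 383, 239, 160 and 73 bases. Atg9a shared 1832 bases with Gm29253 on the same strand. Coordinates are the table's, counted from 1. Alternatives were pseudocounts of 0.1 and 5, other filters on low values, 4 rescalings (quantile, upper-quartile, median centring, TPM), a length correction, library weights, no trend, a replicate block and leaving out each library.

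Named genes were the 5 Atg8 genes, the 8 largest rises and 8 largest falls among those of the 41 that passed, and up to 3 rises and 3 falls of each further list. The members and lists were chosen with earlier results of these data known.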

Additional observations from a re-analysis of the deposited data

Results flagged for a closer look

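Library 2 of whole midbrain lay apart from the other 4 of its group, by Dixon's criterion, in 17 of the 41 autophagy genes. In 14 of them it was the highest. It had 32.7 FPKM of Atg101, 31.9 of Becn1, 9.30 of Pik3r4, 10.3 of Atg2b, 26.8 of Atg12, 8.41 of Atg16l1 and 9.28 of Atg4b. It also had 87.7 FPKM of Map1lc3a, 215 of Map1lc3b, 193 of Gabarapl2, 126 of Sqstm1, 30.2 of Nbr1, 14.4 of Optn and 43.8 of Fundc1. It was the lowest for Gabarapl1 (139 FPKM), Tax1bp1 (48.9 FPKM) and Bnip3l (43.5 FPKM). Library 4 of the dopaminergic neurons was the highest of its group for Atg4c (14.5 FPKM), and library 5 of whole midbrain was the highest of its group for Atg9a (17.1 FPKM). In all, 82 groups were tested (41 genes in 2 groups), and chance flags about 1 in 20. No label records anything that sets library 2 of whole midbrain apart.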

How the results depend on the processing

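The counts of 21 higher and 11 lower autophagy genes stayed within 1.5 times under the alternatives tried, with 3 exceptions: TPM gave 11 higher and 19 lower, and the length correction 5 lower. Over all genes, TPM gave 2248 higher and 7393 lower, and a minimum mean of 5 FPKM 2493 lower. The median difference of the 41 genes (0.37) was 0.25 with a pseudocount of 5, 0.63 with a minimum mean of 5 FPKM, 0.22 with quantile normalization, 0.15 with upper-quartile scaling, 0.43 with median centring, 0.47 with the length correction and -0.22 with TPM. Upper-quartile scaling shifted the median of all genes by -0.20 and the minimum of 5 FPKM by 0.22. Leaving out each library in turn gave 21 to 22 higher and 9 to 11 lower, a median of 0.33 to 0.41, and 4712 to 5646 higher and 4483 to 5089 lower over all genes.

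Some genes changed sign. Under TPM these were Becn1 (-0.16), Atg14 (-0.41), Uvrag (-0.31), Wipi1 (-0.22), Atg9a (-0.53), Atg16l1 (-0.60) and Atg4d (-0.43). Upper-quartile scaling turned Atg14 (-0.0396), Atg9a (-0.13), Atg16l1 (-0.20) and Atg4d (-0.0756). Quantile normalization turned Atg2a (0.22), Atg9a (-0.0693), Mitf (0.0102), the log2 ratio of Gabarapl1 to Gabarapl2 (-0.0472) and that of Atg14 to Uvrag (0.20). Median centring turned Atg2a (0.0465), Atg3 (0.0139) and Optn (0.0446). The length correction turned Rb1cc1 (0.31, adjusted p = 0.00815 with limma), Atg2a (0.21) and Epg5 (0.11). A pseudocount of 5 turned Atg16l1 (-0.0014) and library weights turned Optn (0.10). Leaving out 1 library at a time gave -0.0387 to 0.108 for Atg16l1, -0.0530 to 0.0104 for Atg2a, -0.0749 to 0.109 for Optn and -0.131 to 0.295 for the ratio of Gabarapl1 to Gabarapl2. The ratio of Wipi1 to Wipi2 no longer passed with quantile normalization (adjusted p = 0.0952, exact permutation). Rb1cc1 and Epg5 no longer passed without single libraries (adjusted p up to 0.0911 and 0.0733). The cause was not tested.

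With the replicate number as a block over replicates 1 to 4, 20 autophagy genes were higher and 8 lower (4553 and 4355 over all genes), Rb1cc1, Uvrag, Atg4c, Epg5 and Wdr45b did not pass, and Atg16l1 turned to -0.0354. Without the block over the same libraries, an alternative chosen after seeing the data, the counts were 21 and 11 (4794 and 4544), and Atg16l1 was again at -0.0354. Deviations of same-numbered libraries correlated at -0.04, -0.05, 0.01 and 0.02, which shows no sign of pairing. Such values cannot tell whether same-numbered libraries share an animal or a batch, and the labels do not say. Read counts are unknown, so counting error at low levels, such as that of Atg4a and Atg4d, could not be given.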
